A study of Drosophila melanogaster with 6 samples.

Results

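The 9 genes described here set the axes and the fields of the Drosophila wing imaginal disc, the larval epithelium that gives rise to the wing and to part of the thorax. They are vestigial (vg), scalloped (sd), apterous (ap), nubbin (nub), rotund (rn), Distal-less (Dll), teashirt (tsh), homothorax (hth) and blistered (bs). They were chosen by name as wing and disc selector genes, not by their values, though earlier results of these data were known. Every ATAC-seq peak that overlapped the body of one of these genes, or lay within 10 kb on either side, was taken. Peaks from the 6 lists were joined into 1 interval wherever they shared a base, and this gave 194 intervals at the 9 genes, of 45905 in the whole series.

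A selector gene encodes a transcription factor that gives a group of cells its identity, and its expression in the disc is controlled by enhancers that often lie in introns or in the DNA around the gene. Vg has no DNA-binding domain of its own and works with Sd, the fly TEAD protein, to specify the wing field. Ap is the LIM-homeodomain selector of the dorsal compartment. The POU protein Nub and the zinc finger protein Rn mark the wing pouch, Dll is active at the wing margin, Tsh and the TALE homeodomain protein Hth mark the proximal parts of the disc, and Bs, the fly serum response factor, specifies intervein cells. ATAC-seq inserts a transposase into open chromatin, so a peak marks accessible DNA, such as a promoter or an enhancer, and does not measure transcription.

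Open chromatin was measured in the wing discs of 3 genotypes, each with 2 biological replicates. All of them carried tub-Gal4 with a temperature-sensitive tub-Gal80 (tub-Gal80ts), a driver that acts throughout the disc and was switched on by moving larvae from 17 °C, where they had spent 7 days, to 31 °C for 2 days. The control expressed GFP, the second genotype expressed an RNAi against Cdk1, the kinase that drives entry into mitosis (Cdk1-i), and the third expressed fzr, an activator of the anaphase-promoting complex that leads cells into endocycles. The lists held 36715 and 35404 peaks in the control, 36617 and 36100 in Cdk1-i, and 33335 and 27119 in fzr. Each library pooled many discs, so fewer cells of one type and less open chromatin per cell cannot be told apart. The lists gave no read counts, so the depth of the libraries is unknown.

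Some features of the libraries bear on all values below. The peak names inside the deposited lists exchanged Cdk1-i and fzr against the sample labels. The labels were followed throughout, and every Cdk1-i and fzr value below would change places under the names in the lists. Replicate 2 of fzr stood apart, with the fewest and longest peaks (median length 442 bp, against 306 to 373 bp in the other 5) and with 12.1% of its peaks on the X chromosome, against 15.5 to 16.2%. With 2 libraries against 2, the smallest two-sided exact permutation p is 0.333, so no difference between genotypes was tested here and all comparisons are descriptions. Peaks within 500 bp of an annotated 5′ end were present in all 6 libraries at the wing disc genes nub, rn, bi, salm, wg and ct, and in none at the fat body genes Lsp2 and Fbp1, the salivary gland genes Sgs3 and Sgs4 or the germ line gene vas. Such peaks did not separate tissues fully, since elav (neurons), ey (eye disc), Hml and srp (blood cells), zfh1 and Him (muscle precursors) also had one in all 6 libraries, gl (eye disc) in 5, trh (trachea) in 2 and bam (germ line) in 1.

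The strength of a peak is given here as its percentile, the rank of its fold enrichment over background within its own list, so that 100 is the strongest peak of a library and 50 the median. The sequences below show what these regions look like at hth, rn and tsh. Each is the 300 bases centred on the peak summit in control replicate 1, read on the plus strand of the Release 6 genome (dm6) from RefSeq. Capitals mark matches, on either strand, to GGAATG (the core bound by Sd and other TEAD proteins), TGACAG (Hth), ATGCAAAT (the POU octamer), TAATTA (homeodomain proteins), GAGAG (GAGA factor) or CAGGTA (Zelda). The first 3 come from the strongest interval outside the 5′ ends of hth, rn and tsh. The last 2 come from intervals with some of the largest differences from the control, in Cdk1-i (tsh intron) and in fzr (downstream of rn).
hth intron, chr3R:10622186-10622485: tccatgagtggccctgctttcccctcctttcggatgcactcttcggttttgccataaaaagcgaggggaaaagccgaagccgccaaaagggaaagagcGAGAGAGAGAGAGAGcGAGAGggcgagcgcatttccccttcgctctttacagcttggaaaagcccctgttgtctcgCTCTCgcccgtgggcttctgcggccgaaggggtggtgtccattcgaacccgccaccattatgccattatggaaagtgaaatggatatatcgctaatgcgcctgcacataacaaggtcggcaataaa
rn upstream, chr3R:7312941-7313240: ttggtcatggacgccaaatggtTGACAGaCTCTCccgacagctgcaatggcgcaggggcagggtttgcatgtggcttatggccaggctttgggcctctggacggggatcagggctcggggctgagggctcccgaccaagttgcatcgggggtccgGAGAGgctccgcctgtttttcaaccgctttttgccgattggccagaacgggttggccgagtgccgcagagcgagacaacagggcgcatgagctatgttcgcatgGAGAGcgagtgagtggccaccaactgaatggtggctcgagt
tsh downstream, chr2L:21847642-21847941: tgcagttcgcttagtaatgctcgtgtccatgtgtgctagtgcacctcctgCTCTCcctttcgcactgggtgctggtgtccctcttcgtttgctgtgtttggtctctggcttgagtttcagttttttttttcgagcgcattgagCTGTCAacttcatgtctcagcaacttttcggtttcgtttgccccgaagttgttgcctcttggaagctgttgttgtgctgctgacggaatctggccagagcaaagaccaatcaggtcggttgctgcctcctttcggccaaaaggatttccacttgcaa
tsh intron, chr2L:21830632-21830931: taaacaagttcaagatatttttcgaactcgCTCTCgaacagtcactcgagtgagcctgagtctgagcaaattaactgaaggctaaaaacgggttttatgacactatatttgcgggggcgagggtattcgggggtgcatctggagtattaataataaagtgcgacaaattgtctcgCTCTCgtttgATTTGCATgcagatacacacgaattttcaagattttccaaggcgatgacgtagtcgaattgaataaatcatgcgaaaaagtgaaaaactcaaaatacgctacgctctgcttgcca
rn downstream, chr3R:7266473-7266772: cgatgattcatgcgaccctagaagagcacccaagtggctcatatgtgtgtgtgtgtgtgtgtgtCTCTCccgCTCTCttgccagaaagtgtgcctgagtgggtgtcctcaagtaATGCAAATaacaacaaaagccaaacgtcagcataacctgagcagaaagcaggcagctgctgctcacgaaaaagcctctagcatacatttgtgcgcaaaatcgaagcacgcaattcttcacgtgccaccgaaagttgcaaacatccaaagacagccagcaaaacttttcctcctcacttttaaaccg

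The hth window held 8 matches to GAGAG, several of them overlapping in one run, and the rn upstream window held 3 with 1 match to TGACAG. The tsh intron window and the window downstream of rn each held 1 POU octamer and 2 matches to GAGAG. Of 164 windows at the selector genes, 42.1% held GAGAG, 20.7% GGAATG, 16.5% TGACAG, 7.32% TAATTA, 6.10% CAGGTA and 4.88% ATGCAAAT, against 38.3%, 17.4%, 15.4%, 9.60%, 7.13% and 5.39% of the 36353 windows of that library. GGAATG was found in 8 of 20 windows at nub, 4 of 10 at ap and 3 of 9 at vg. It was in 11 of 57 at hth and 4 of 19 at bs. At sd, tsh, Dll and rn it was in 1 window each, of 9, 10, 14 and 16. A match of this kind is a description of letters and was not read as a bound site.

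Most intervals at the selector genes were shared by all genotypes. Of the 194 intervals, 128 (66.0%) had a peak in all 6 libraries, against 42.4% of all 45905 intervals and 53.7% of the 365 intervals at 22 other wing disc transcription factors and targets. Another 23 intervals (11.9%) were seen in a single library, against 16.8% over all intervals. The windows held 3.79 intervals per 10 kb, against 3.30 over the chromosome arms, with a range from 2.42 at ap, 2.56 at vg and 2.77 at sd to 4.54 at hth. The number of peaks at the 9 genes ran from 178 to 201 in the 5 other libraries and was 144 in fzr replicate 2, the shortest list. The genes differed in how constant their intervals were. All 9 intervals at vg and all 10 at ap were present in every library, as were 12 of 15 at Dll, 14 of 20 at bs, 15 of 24 at rn, 14 of 23 at nub, 41 of 69 at hth, 7 of 12 at tsh and 6 of 12 at sd.

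**Figure D1:**
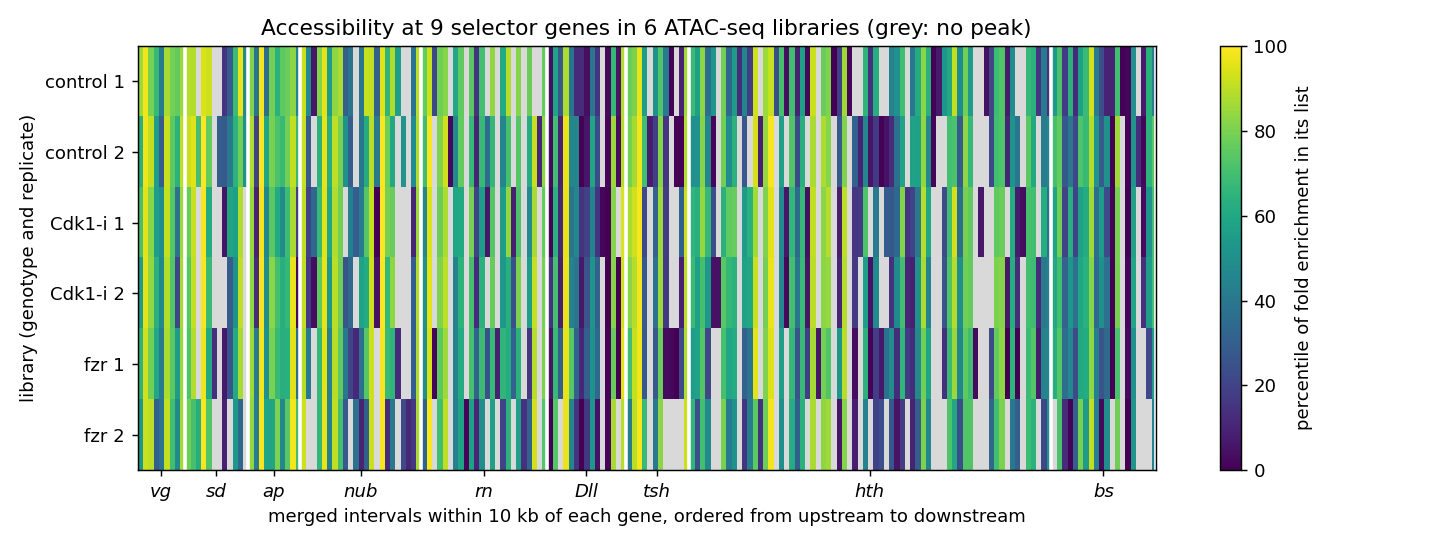
Percentile of fold enrichment (colour, 0 to 100) of the 194 merged intervals at the 9 genes (columns, ordered from upstream to downstream within each gene) in the 6 ATAC-seq libraries (rows). Grey marks an interval with no peak in that library. The columns of vg and ap hold no grey, while those of hth, rn and sd do, most often at intervals of low percentile in the other libraries.

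Position within the gene went with the level of accessibility. By midpoint, 12 of the 194 intervals lay within 500 bp of an annotated 5′ end, 120 in introns, 24 upstream and 38 downstream. No midpoint fell in an exon elsewhere. By this rule the interval over the start of Dll counted as upstream, and an interval over an internal start of ap as intronic. Over the intervals shared by all libraries, the 5′ end intervals had a median percentile of 95.1 and 97.6 in the control libraries. The upstream intervals had 80.4 and 76.0, the downstream intervals 74.4 and 75.0, and the intronic intervals 64.2 and 63.0. Upstream intervals thus lay above intronic ones by 14.6 ± 2.24 points (SD, n = 2) in the control. That difference was 3.66 points when peaks were ranked by −log10 p instead, and 8.38 points when the 31 intervals within 500 bp of the 5′ end of another gene or transposon were left out.

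Introns made up most of the length searched. They carried 4.30 intervals per 10 kb of intron, the upstream flanks 2.67 and the downstream flanks 4.22. All 6 libraries had a peak at 83.3% of the 5′ end intervals, 79.2% of the upstream, 65.8% of the intronic and 52.6% of the downstream intervals. In Cdk1-i the median percentile averaged 62.5 for introns and 73.6 for upstream intervals, and in fzr it averaged 56.9 and 69.6, against 63.6 and 78.2 in the control. The median of the 5′ end intervals stayed between 95.1 and 97.6 in the 6 libraries. In fzr replicate 2 the intronic median was 51.0, the lowest of the 6.

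**Figure D2:**
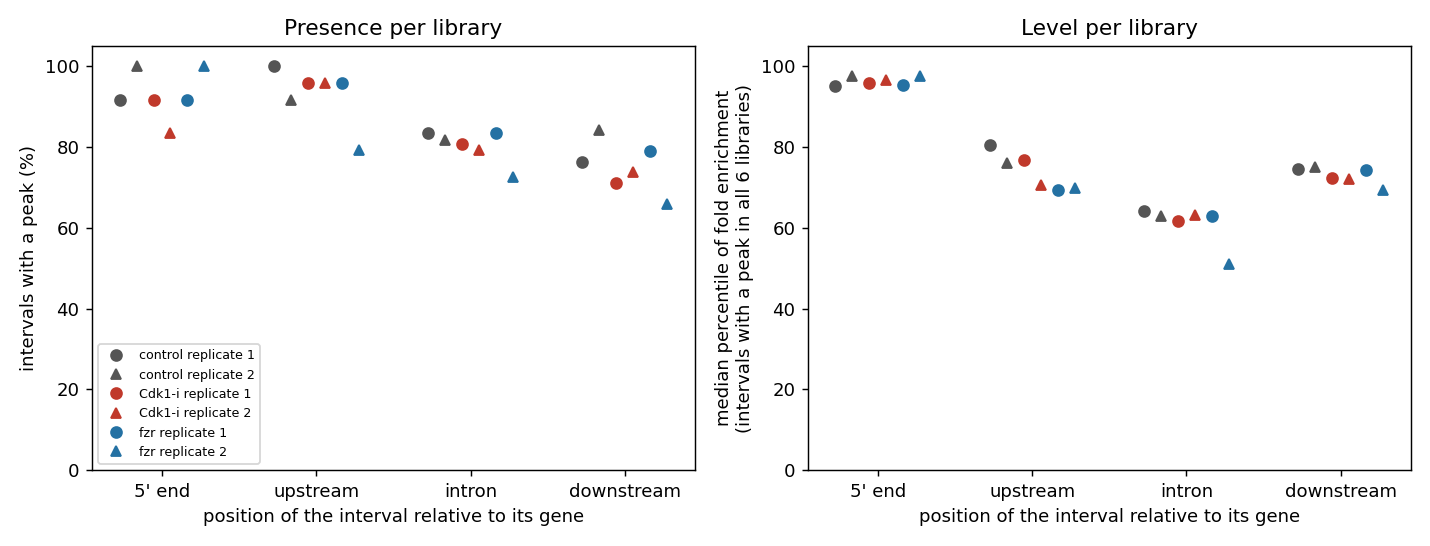
Left, share of the intervals of each position class with a peak in each library (%). Right, median percentile of fold enrichment over the intervals with a peak in all 6 libraries. Circles are replicate 1, triangles replicate 2 and colours the genotypes. In the right panel the 5′ end intervals sit above all other classes in every library and the intronic ones lowest. In the left panel the order of the classes differs between libraries.

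Most control intervals at the selector genes were kept after knockdown of Cdk1 or expression of fzr. Of the 148 intervals with a peak in both control libraries, 141 and 144 also had one in the Cdk1-i libraries (95.3% and 97.3%, mean 96.3% ± 1.43, SD, n = 2). Over all 28502 such intervals of the series the shares were 91.4% and 91.6%. In fzr, 143 and 131 of the 148 were kept (96.6% and 88.5%, mean 92.6% ± 5.73, SD, n = 2), against 85.2% and 75.5% over all intervals. Strong intervals were kept most often. Of the 97 with a mean control percentile of at least 50, 97.9% were present in all 6 libraries (89.1% over all intervals of that strength), and of the 51 weaker ones 64.7% were (41.5% over all intervals).

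Few intervals were gained or lost. Among the 14 intervals with no control peak, 2 (14.3%) had a peak in both Cdk1-i libraries and 1 (7.14%) in both fzr libraries. The background over all 6736 such intervals was 21.9% and 7.23%, and 14 intervals are too few to tell such shares apart. Both Cdk1-i gains were intronic and weak. The one in rn (3R, 7281261 to 7281601) had percentiles of 8.93 and 24.6 in Cdk1-i, and also a peak at 31.4 in fzr replicate 1. The one in hth (3R, 10555604 to 10555857) had 15.5 and 10.6, with 17.9 in fzr replicate 1. The fzr gain, in an intron of nub (2L, 12605871 to 12606227), had 11.5 and 37.6, with 29.8 in Cdk1-i replicate 1. Each of the 3 thus also held a peak in a library of the other genotype. Leaving out 1 library, which loosens the rule, gave up to 7 gains in Cdk1-i (without control replicate 1) and up to 8 in fzr (without fzr replicate 2).

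Among the 148 control intervals, 3 (2.03%) had no peak in either Cdk1-i library and 5 (3.38%) had none in either fzr library. The background was 5.28% and 9.78%. An interval downstream of sd (X, 15837194 to 15837485), at the 5′ end of CG8565 and of a transposon insertion, had percentiles of 47.5 and 51.0 in the control and no peak in any of the other 4 libraries. A weak intronic interval of hth (3R, 10546214 to 10546444), at 0.870 and 1.30 in the control, was absent from the same 4 libraries. Another hth intron interval (3R, 10522878 to 10523441) was at 20.9 and 21.6 in the control and 22.9 and 33.3 in fzr, with no peak in Cdk1-i. The remaining 3 lost in fzr kept a peak in both Cdk1-i libraries and lay in nub (30.5 and 41.5 in the control), in hth (52.9 and 1.34) and downstream of bs (7.24 and 1.57). Without either control library 13 intervals were lost in Cdk1-i, and without fzr replicate 1 as many as 17 were lost in fzr.

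The strength of the 128 shared intervals also moved little on balance. The median change in percentile against the control was 0.17 points in Cdk1-i and −2.88 points in fzr, where it was 0.44 and −4.17 over all 19441 intervals shared by the 6 libraries. The sign of both medians rests on choices. In Cdk1-i the median was −0.71 without control replicate 1, 1.09 without control replicate 2 and 1.22 without Cdk1-i replicate 1. In fzr it was −1.52 without control replicate 2, −0.89 without fzr replicate 2 and 1.39 with lists of equal length. In single intervals, the change had a median size of 4.94 points in Cdk1-i and 6.67 in fzr. The 2 libraries of a genotype differed by a median of 7.71 points in the control, 4.30 in Cdk1-i and 7.31 in fzr. The change is between means of 2 libraries and these differences are between single libraries, so the sizes are not on one scale. Both Cdk1-i libraries lay above both controls at 27 of the 128 intervals and below both at 29, against a background of 23.7% higher and 21.0% lower over all intervals. Both fzr libraries lay above at 13 and below at 32, against 8.53% and 33.2%. The split in fzr depended on the scaling, since it was 24 above and 16 below when every list was cut to the same number of peaks, and 8 above and 41 below when peaks were ranked by −log10 p. Leaving out 1 library raised these counts, to at most 59 above and 60 below in Cdk1-i (without control replicate 2 and control replicate 1) and 43 above and 64 below in fzr (without control replicate 2 and fzr replicate 1). The shares over all intervals were not counted under these other settings, so it is unknown whether they shift in the same way.

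**Figure D3:**
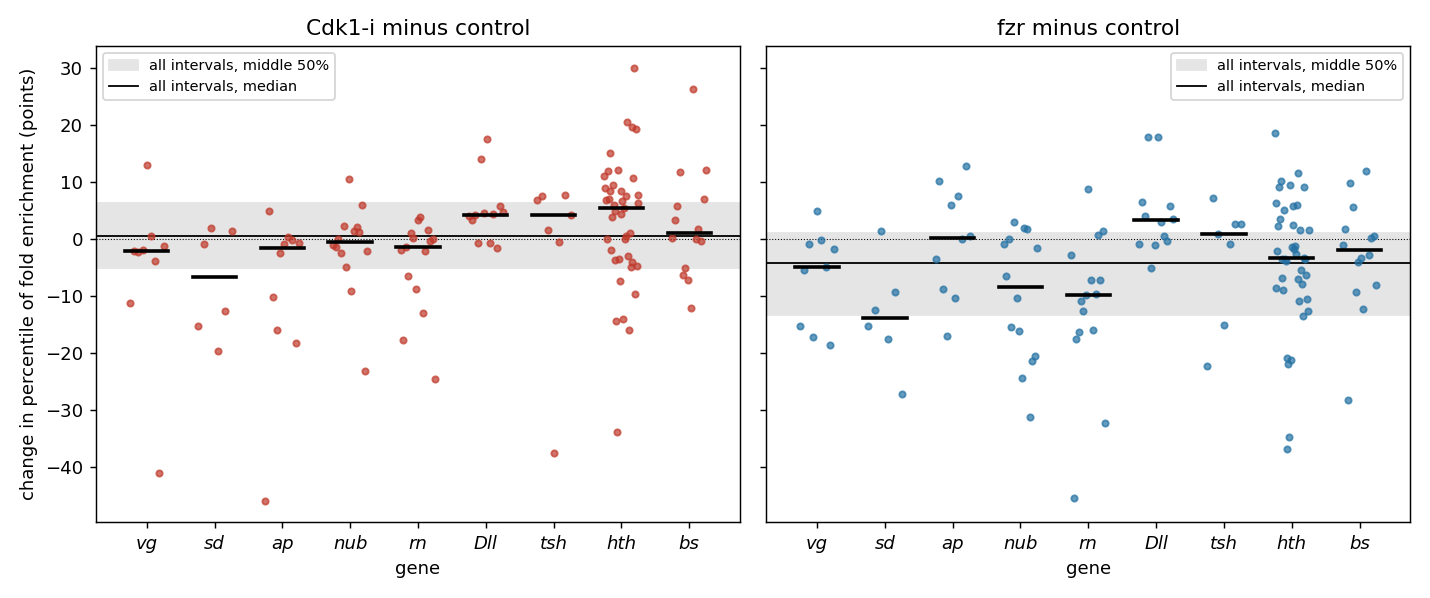
Change in percentile of fold enrichment against the control (mean of 2 libraries minus mean of 2 controls, in points) at each of the 128 intervals shared by all libraries, by gene, in Cdk1-i (left) and fzr (right). Thick bars are medians per gene, the thin line and the grey band the median and middle 50% of all 19441 shared intervals. The medians of sd lie lowest in both panels (−6.75 and −13.9 points), and those of Dll and tsh lie above 0 in both.

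The wing selector complex is made of Vg and Sd. The promoter of vg (2R, 12884037 to 12884645) had percentiles of 98.0 and 97.4 in the control, 95.8 and 95.4 in Cdk1-i and 92.8 and 91.7 in fzr, so that both other genotypes lay slightly below the control. Introns of vg are known to carry its boundary and quadrant enhancers. The strongest of its 4 intronic intervals (2R, 12896311 to 12897247) stayed at 86.8 and 92.0 in the control, 91.3 and 88.4 in Cdk1-i and 87.4 and 90.9 in fzr, and the genotypes overlapped. An interval downstream of vg (2R, 12901833 to 12903209), at the start of a Doc4 transposon insertion, had 76.2 and 64.1 in the control, 37.3 and 20.8 in Cdk1-i and 55.1 and 48.0 in fzr. This was a difference of −41.1 points in Cdk1-i, with fzr between the others. The 9 intervals of vg had median changes of −2.12 points in Cdk1-i and −4.96 in fzr.

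At sd, the TEAD partner, the strongest interval lay at an internal start. That interval (X, 15811472 to 15812346) had 94.6 and 99.3 in the control, 98.5 and 99.1 in Cdk1-i and 97.6 and 99.0 in fzr. A second internal start of sd (X, 15812985 to 15813539) had 92.6 and 76.5 in the control, 61.6 and 68.1 in Cdk1-i and 60.8 and 73.2 in fzr, below both controls in all 4 libraries. A further internal start (X, 15817751 to 15818096) was weak, at 15.4 and 28.4 in the control and at most 8.75 elsewhere, with no peak in Cdk1-i replicate 2. The outermost start of sd held a peak in control replicate 2 (70.1) and fzr replicate 2 (62.4) alone. Over the 6 shared intervals of sd the median change was −6.75 points in Cdk1-i and −13.9 in fzr, the lowest of the 9 genes in both. Beside this, the X chromosome as a whole had median changes of 0.12 and −4.79 points, and −7.50 in fzr replicate 2 alone. The strongest interval away from the starts of sd (X, 15798790 to 15799443), over the starts of CG15602 and sordd2, had 88.6 and 95.5 in the control, 91.7 and 90.7 in Cdk1-i and 88.3 and 70.8 in fzr. Of the 12 intervals around sd, 5 lay at the 5′ ends of other genes or transposons.

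All 10 intervals of the dorsal selector ap were present in every library, while their strength varied, and both Cdk1-i libraries lay below both controls at 4 of the 10 (background 21.0%). Its promoter interval (2R, 5726799 to 5727598) had 98.1 and 99.0 in the control, 98.1 and 98.5 in Cdk1-i and 98.1 and 98.9 in fzr. An interval upstream of ap (2R, 5731679 to 5732136) had 38.9 and 18.8 in the control, 9.05 and 12.0 in Cdk1-i and 41.3 and 42.0 in fzr, so that Cdk1-i lay below the control and fzr above it. The interval with the largest difference at any of the 9 genes in Cdk1-i lay 29451 bp from the 5′ end of ap (2R, 5697722 to 5698426), at the start of the neighbouring gene Cndp2. It had 45.3 and 67.4 in the control, 18.7 and 2.17 in Cdk1-i and 36.1 and 69.7 in fzr. Its peak in Cdk1-i replicate 2 had a −log10 q of 2.80. The interval was not shared by all libraries with a minimum −log10 q of 5 or with lists of equal length. A weaker interval over an internal start of ap (2R, 5709279 to 5710310) had 77.0 and 78.5 in the control, 68.6 and 66.5 in Cdk1-i and 63.5 and 74.4 in fzr, below both controls throughout. The strongest interval away from the promoter, at the start of the neighbour vlc (2R, 5701881 to 5702574), had 82.8 and 90.8 in the control, 87.2 and 96.2 in Cdk1-i and 95.5 and 98.3 in fzr. The median changes over ap were −1.62 and 0.20 points.

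**Figure D4:**
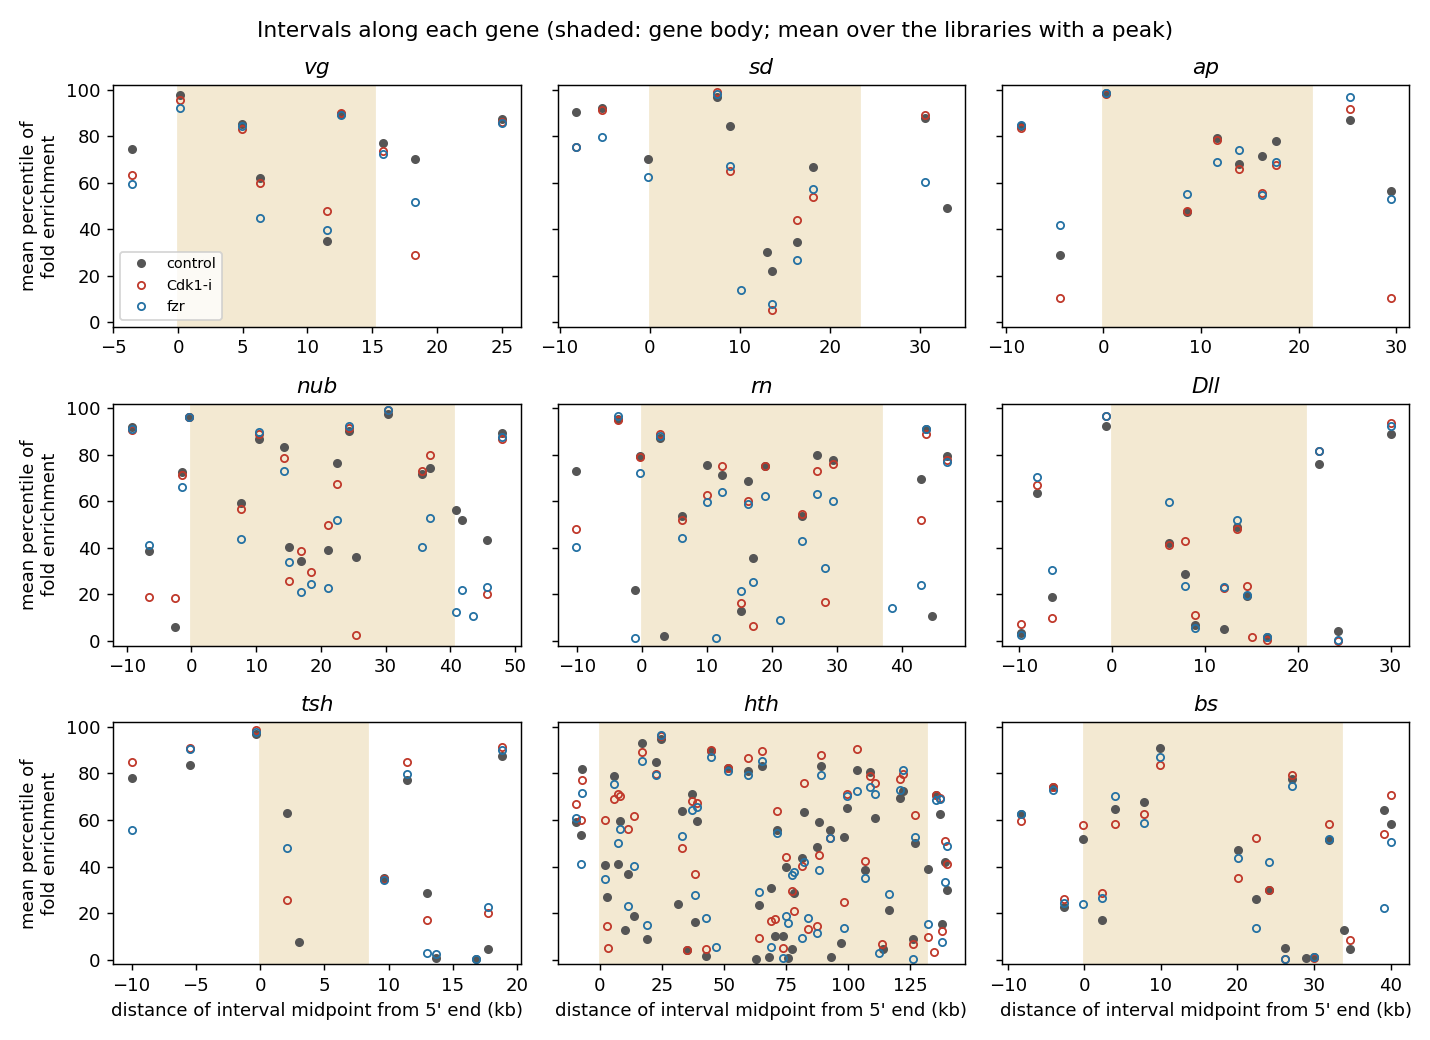
Mean percentile of fold enrichment of every interval (points) against the distance of its midpoint from the outermost 5′ end of its gene (kb, in the direction of transcription), for each of the 9 genes. Filled grey is the control, open red Cdk1-i and open blue fzr, each the mean over those of its 2 libraries with a peak, and the shaded area is the gene body. Percentiles above 90 in all 3 genotypes are found at or near a start of every gene except rn and bs.

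At the pouch gene nub the intervals at its starts differed little between genotypes. The internal start of nub (2L, 12617704 to 12618392) had 95.7 and 99.1 in the control, 99.4 and 99.5 in Cdk1-i and 99.2 and 99.1 in fzr. Every Cdk1-i and fzr library lay slightly above both controls there, with changes of 2.07 points in Cdk1-i and 1.80 in fzr. Its outermost start (2L, 12586800 to 12587658) stayed between 95.8 and 96.6 in all 6 libraries. The strongest interval elsewhere in nub (2L, 12611612 to 12612267), which is also the start of the nested gene Ref2, stayed between 89.5 and 92.5. Over 14 shared intervals of nub the median change was −0.54 points in Cdk1-i and −8.42 in fzr. Both fzr libraries lay below both controls at 5 of these 14, close to the background share of 33.2%, and these 5 were in introns or downstream. One of these intronic intervals (2L, 12608524 to 12608897) had 39.3 and 38.9 in the control, 41.3 and 57.9 in Cdk1-i and 36.4 and 9.49 in fzr.

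The promoter of rn, the other pouch gene (3R, 7309606 to 7310125) had 78.4 and 80.6 in the control, 77.7 and 80.7 in Cdk1-i and 74.9 and 69.7 in fzr, where both libraries lay below both controls. The strongest interval of rn lay upstream (3R, 7312833 to 7313678), at the start of a long non-coding RNA gene, and had 91.4 and 99.0 in the control, 94.5 and 95.8 in Cdk1-i and 93.9 and 99.2 in fzr. The largest difference in fzr among the 9 genes lay downstream of rn (3R, 7266457 to 7267021), near a start of Syt4, a synaptotagmin gene. It had 77.5 and 61.8 in the control, 48.4 and 55.7 in Cdk1-i and 16.3 and 32.1 in fzr, a difference of −45.5 points in fzr and −17.7 in Cdk1-i. With lists of equal length this interval was not shared by all libraries. An upstream interval at the edge of the window (3R, 7319531 to 7319957) had 76.3 and 69.5 in the control, 46.1 and 50.4 in Cdk1-i and 49.0 and 32.1 in fzr, below both controls in all 4 libraries. Both fzr libraries lay below both controls at 7 of the 15 shared intervals of rn, its promoter included, and above at none, where the background was 33.2% below and 8.53% above, and the median change was −9.82 points. As given above, the split in fzr over the 9 genes turned with lists of equal length. The median change in Cdk1-i was −1.48.

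The margin gene Dll and the intervein gene bs had weaker intervals than the others. Over the intervals shared by all libraries, the control medians were 26.9 and 45.6 for Dll and 46.5 and 52.3 for bs, where those of the other 7 genes lay between 60.7 and 90.7. The start of Dll (2R, 24813559 to 24814861) was itself strong, at 87.9 and 97.2 in the control, 96.6 and 97.0 in Cdk1-i and 96.2 and 97.0 in fzr. Its strongest interval elsewhere lay downstream (2R, 24844532 to 24845178), at 88.4 and 89.3 in the control, 94.2 and 92.9 in Cdk1-i and 95.3 and 89.5 in fzr. The intronic intervals of Dll were the weak ones, with control percentiles between 0.425 and 58.7. One of these (2R, 24826652 to 24827109) had 4.26 and 6.02 in the control, 19.8 and 25.5 in Cdk1-i and 29.9 and 16.2 in fzr, above both controls in all 4 libraries. Dll had the highest median change of the 9 genes in fzr, 3.23 points, and 4.25 points in Cdk1-i.

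The start of bs (2R, 24342543 to 24342862) was the weakest among the promoters present in all libraries. It had 64.4 and 39.5 in the control, 63.3 and 52.1 in Cdk1-i and 46.5 and 1.08 in fzr, and the last of these is the library that stood apart. The strongest interval of bs was intronic (2R, 24352433 to 24353110), at 93.4 and 88.6 in the control, 85.6 and 81.9 in Cdk1-i and 83.2 and 90.9 in fzr. It overlaps the antisense RNA of bs and lies within 500 bp of the start of a roo transposon insertion. A further intronic interval (2R, 24364684 to 24365932), which also overlaps the antisense RNA of bs, had 23.9 and 28.3 in the control, 54.7 and 50.2 in Cdk1-i and 25.5 and 2.05 in fzr. The difference was 26.3 points in Cdk1-i and −12.3 in fzr, where replicate 1 lay between the controls and replicate 2 below them.

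The proximal genes are tsh and hth. The promoter of tsh (2L, 21827860 to 21828616) had 96.4 and 97.9 in the control, 98.8 and 98.4 in Cdk1-i and 97.5 and 98.6 in fzr. The strongest interval elsewhere lay downstream (2L, 21846771 to 21848090), at 86.2 and 88.6 in the control, 92.9 and 90.1 in Cdk1-i and 88.0 and 91.9 in fzr. Both Cdk1-i libraries lay above both controls at 5 of the 7 shared intervals of tsh, where the background was 23.7%. The exception with the largest difference was in its intron (2L, 21830385 to 21831043), with 56.2 and 69.9 in the control, 22.7 and 28.3 in Cdk1-i and 28.1 and 67.9 in fzr. This interval lay below the control by 37.5 points in Cdk1-i, while the fzr libraries were far apart. An interval upstream of tsh (2L, 21818411 to 21818797) had 76.6 and 79.2 in the control, 87.3 and 82.2 in Cdk1-i and 69.2 and 41.9 in fzr, so that Cdk1-i lay above the control and fzr below it. The median changes at tsh were 4.10 points in Cdk1-i and 0.89 in fzr.

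The gene hth is the longest of the 9, at 132008 bp, and held 69 of the 194 intervals, 58 of them in introns. Its only 5′ end interval lay at an internal start (3R, 10614250 to 10615153), with 91.3 and 98.5 in the control, 95.6 and 96.4 in Cdk1-i and 94.7 and 98.3 in fzr, and no peak lay within 500 bp of its outermost start. The strongest intronic interval (3R, 10622021 to 10622711), the one with the run of GAGAG shown above, had 92.8 and 93.6 in the control, 86.2 and 91.9 in Cdk1-i and 96.0 and 74.7 in fzr. Both Cdk1-i libraries lay above both controls at 15 of the 41 shared intervals and below at 7 (background 23.7% and 21.0%), with a median change of 5.43 points, the highest of the 9 genes. In fzr the counts were 5 above and 9 below (background 8.53% and 33.2%), with a median of −3.33.

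Single intronic intervals of hth went both ways. Toward the 5′ end of the gene (3R, 10632134 to 10632430) an interval had 33.9 and 48.2 in the control, 75.4 and 66.7 in Cdk1-i and 58.8 and 41.5 in fzr, a difference of 30.0 points in Cdk1-i. Further into the gene (3R, 10551723 to 10552178) another had 39.1 and 57.4 in the control, 20.0 and 8.82 in Cdk1-i and 13.2 and 9.73 in fzr. This last interval lay below both controls in all 4 other libraries, by 33.9 points in Cdk1-i and 36.8 in fzr. A neighbour (3R, 10557574 to 10558360) had 50.8 and 36.9 in the control, 33.5 and 47.3 in Cdk1-i and 13.0 and 5.33 in fzr, so that only in fzr did both libraries lie below both controls. The 4 other intervals of hth with large upward differences in Cdk1-i or fzr started at 10600823, 10627953, 10637432 and 10528385, with changes of 20.5, 19.6, 19.3 and 15.1 points in Cdk1-i and 11.6, −13.5, −6.25 and 10.1 in fzr. The largest upward difference in fzr, 18.5 points, lay downstream of hth (3R, 10499564 to 10500178), where the control libraries themselves were at 14.4 and 45.7, the Cdk1-i libraries at 37.6 and 44.6 and the fzr libraries at 46.1 and 51.1.

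**Figure D5:**
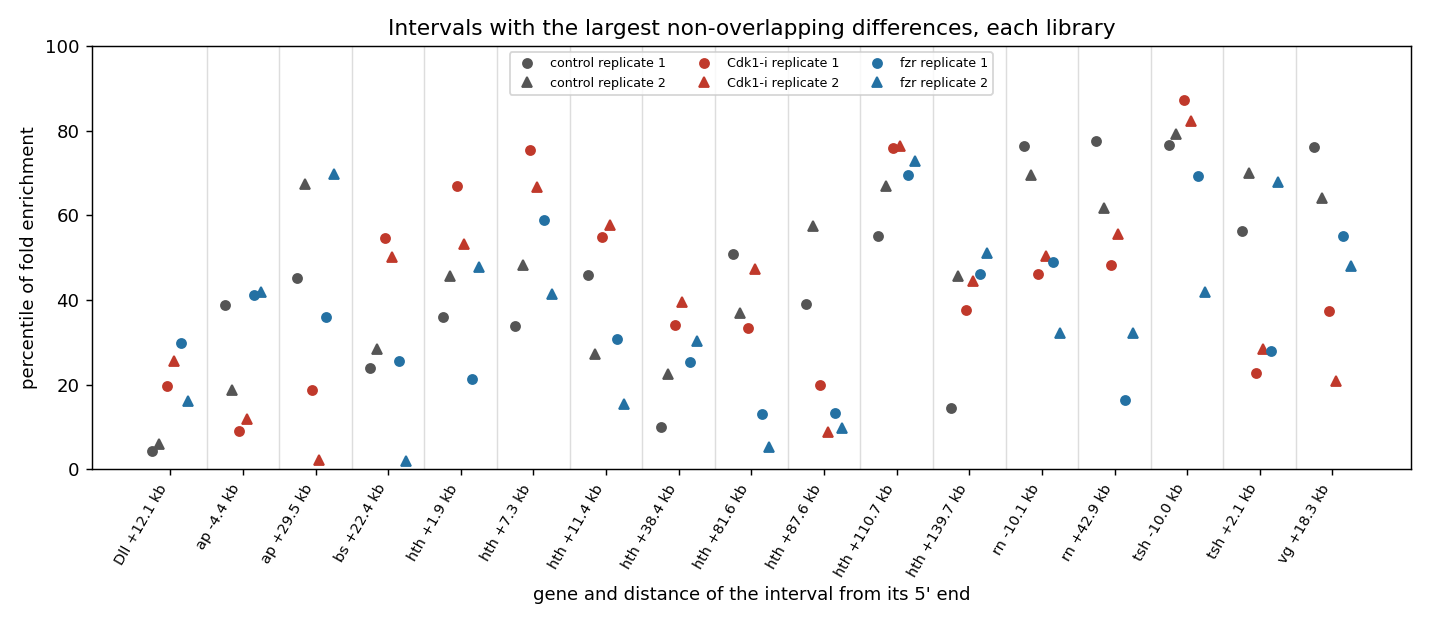
Percentile of fold enrichment in each of the 6 libraries (circles, replicate 1; triangles, replicate 2) at the intervals with the largest differences among those where both libraries of a genotype lie outside both controls. The horizontal axis names the gene and the distance of the interval from its 5′ end in kb. At hth +87.6 kb all 4 Cdk1-i and fzr libraries (8.82 to 20.0) lie below the controls (39.1 and 57.4), and at Dll +12.1 kb all 4 lie above them.

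The same counts were made at 22 other wing disc genes. At these genes (among them salm, ct, bi, fng, Ser, dac and exd, the partner of Hth) both Cdk1-i libraries lay above both controls at 35 of 196 shared intervals and below at 49, and both fzr libraries at 11 and 56. Their median changes were −0.15 and −2.73 points. The share of control intervals kept was 93.4% and 96.3% in Cdk1-i and 91.8% and 84.4% in fzr. In the 91 selector gene intervals with exactly 1 peak in each list the 6 summits spanned a median of 94 bp and at most 741 bp, against a median of 104 bp over 15661 such intervals of the series. The summits lay within 50 bp of each other in 20.9% of the 91, against 22.6% over the series.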

How the data were processed

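ATAC-seq libraries of wing discs (3 genotypes, 2 replicates each) were grouped by the sample labels. The authors aligned reads to dm6 with BWA-MEM in nf-core/atacseq, left out blacklisted regions, and ran MACS2 on each library separately to call peaks. The peak cutoff, the handling of duplicates and the correction for the transposase offset are not given in the sources used here. The deposited lists give for each peak a fold enrichment (a ratio over the local background), −log10 p and −log10 q, an integer score and a summit. The authors also counted reads with featureCounts and compared accessibility between genotypes with DESeq2. Neither the read counts nor that comparison was used here, so depth is unknown. The lowest −log10 q in the lists lay between 2.00 and 2.16.

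Peaks were merged into intervals with Python 3.11.15, NumPy 2.4.6 and pandas 2.3.3, and each interval took, in each library, the percentile of its highest fold enrichment within that list. Gene coordinates came from Ensembl annotation on dm6 coordinates, and sequence from RefSeq Release 6. An interval was classed by its midpoint as 5′ end (within 500 bp of an annotated start), exon, intron, upstream or downstream. Named intervals were those at the 5′ end, the strongest elsewhere, all gained or lost, and in each genotype the 5 largest changes in each direction among intervals where both libraries lay outside both controls. Of the windows chosen for printing, 4 on 2R, 1 over an annotated untranslated region and 1 in nub, which held no match to any motif, are not shown. The counting code was tested on simulated data.

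The 9 genes and all lists were chosen with earlier results of these data known. Alternatives used a minimum −log10 q of 5, lists of equal length (27119 peaks), an overlap of 0.5 of the shorter peak, a window of 5 kb, ranking by −log10 p, log2 fold enrichment centred per list, exchanged genotype labels, and each library left out in turn. Leaving out the intervals at the 5′ ends of other genes was chosen after seeing the data.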

Additional observations from a re-analysis of the deposited data

Results flagged for a closer look

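At 4 intervals, both libraries of one genotype lay above both controls and both libraries of the other lay below them, by percentile of fold enrichment. These differences were not tested, and how often this pattern occurs over all intervals was not counted. Taken singly, its calls had a background of 23.7% higher and 21.0% lower in Cdk1-i, and 8.53% higher and 33.2% lower in fzr. Upstream of ap (2R, 5731679), the change against the control was 12.8 points in fzr and −18.3 points in Cdk1-i. In an intron of nub (2L, 12608524), it was 10.5 points in Cdk1-i and −16.2 points in fzr. There the controls were at 39.3 and 38.9, the Cdk1-i libraries at 41.3 and 57.9 and the fzr libraries at 36.4 and 9.49. Upstream of tsh (2L, 21818411), it was 6.87 points in Cdk1-i and −22.3 points in fzr, and the fzr libraries there differed widely, at 69.2 and 41.9. In an intron of hth (3R, 10549955), it was 4.85 points in Cdk1-i and −3.80 points in fzr.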

How the results depend on the processing

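The limits are the 2 libraries per genotype, the unknown depth, and percentiles that rest on each list's length. Exchanging the genotype labels, as the names in the lists have it, gave Cdk1-i the fzr values and the reverse: kept 92.6% in Cdk1-i, gained 1 and 2 and lost 5 and 3 in Cdk1-i and fzr, higher in 13 and 27, median change −2.88 and 0.17 points. Changes of single intervals then turned to −12.3 (bs 24364684), −13.5 (hth 10627953) and −6.25 points (hth 10637432) in Cdk1-i, and to −18.3 (ap 5731679) and 6.87 (tsh 21818411) in fzr. With lists of equal length, Cdk1-i kept 92.0% and lost 8, and fzr gained 2, was higher at 24 and lower at 16, with a median change of 1.39 points and an upstream minus intron difference of 17.0 in the control. With a minimum −log10 q of 5, Cdk1-i kept 93.8% and lost 5 with a median change of 1.43, and fzr gained 2. Some of the largest single changes could not be given under these settings, since the interval was then not shared by all libraries. With lists of equal length these were ap 5697722, vg 12901833, tsh 21830385, rn 7266457 and hth 10557574. With a minimum −log10 q of 5 they were ap 5697722 and hth 10557574. Centred log2 fold enrichment gave medians of −0.026 in Cdk1-i and 0.048 in fzr. Ranking by −log10 p gave 8 higher in fzr and a difference of 3.66 between upstream and intron. A 5 kb window left 11 upstream intervals. Without the 5′ ends of other genes, fzr lost 3 and that difference was 8.38. Shares over all intervals were not counted under any alternative, and the cause of these shifts was not tested.

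Leaving out each library in turn gave 188 to 210 intervals, 114 to 130 intronic and 24 to 25 upstream. Kept shares ran from 89.7% to 97.3% in Cdk1-i and 85.8% to 96.3% in fzr. Gained intervals ran from 2 to 7 and 1 to 8, and lost from 3 to 13 and 5 to 17, in Cdk1-i and fzr. Intervals higher ran from 27 to 59 and 13 to 43, and lower from 29 to 60 and 32 to 64, since fewer libraries then had to lie apart. The median change ran from −0.71 (without control replicate 1) to 1.22 points in Cdk1-i, so its sign rests on that library, and from −3.72 to −0.89 (without fzr replicate 2) in fzr. The upstream minus intron difference ran from 11.8 to 16.3 points. No paired analysis was possible because no result comes from a test.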
